A study of Mus musculus with 6 samples.

Results

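The 9 genes *Col17a1*, *Dst*, *Itga6*, *Itgb4*, *Lama3*, *Lamb3*, *Plec*, *Cd151* and *Itga3*, which encode hemidesmosome proteins, 2 chains of laminin-332 and a laminin-binding integrin with its tetraspanin, were compared between mouse esophagus and stomach organoids. They were chosen by name, with earlier results of these data known. Every non-control probe that carried such a gene name was taken. All 9 were on the array, with 15 probes among them, out of 34298 gene names and 55681 probes in all. Of the 9 genes, 5 had 1 probe and 4 had more.

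Expression was measured on 6 single-colour Agilent mouse arrays, 3 of esophagus and 3 of stomach organoids, grown from epithelial stem cells. The sample titles number both tissues 1, 2 and 4, read here as mice, so that each animal would have given both tissues. All 6 were controls at passage 0 of 3-dimensional culture, harvested on day 8, apart from stomach of mouse 4 (day 7). The study's methods name wild-type C57BL/6 females as the unmodified mice; the methods also give an adult age range, without tying either to these 3 animals. Both tissues were grown in Matrigel, a tumour-derived basement membrane gel. Stomach organoids were started from corpus glands in a medium with WNT3A, R-spondin1 and gastrin, and esophagus organoids from dissociated cells in a medium with forskolin and without those 3 additions, so that tissue, isolation and medium cannot be told apart here. The esophagus array of mouse 4 was alone on its slide. Values are the mean and SD of 3 arrays per tissue on the log2 scale. The limma p-values rest on the spread among the 3 arrays of each tissue, moderated over all probes. Spread between animals, cultures and arrays cannot be told apart.

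Hemidesmosomes rivet the basal cells of a stratified epithelium to the basement membrane. Integrin α6β4 and collagen XVII cross the cell membrane and bind laminin-332 outside the cell, while plectin and the epithelial form of dystonin (BPAG1e) tie them to keratin filaments inside it. Simple columnar epithelia usually carry a reduced, type II form of the junction that holds α6β4 and plectin and lacks collagen XVII and BPAG1e. Laminin-332 holds the α3 and β3 chains, and integrin α3β1, associated with the tetraspanin CD151, also binds it.

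The arrays carried the markers of their labels. Of 7 squamous markers, 6 had a probe higher in esophagus, and their summed intensity (linear scale, brightest probe of each gene) was 380743 to 522338 in esophagus and 2059 to 3597 in stomach arrays. The exception was *Ivl* (difference 0.05). The brightest *Trp63* probe was lower in esophagus by 1.22, while 3 other *Trp63* probes were higher, by at least 299-fold, 92.0-fold and 49.6-fold. All 9 columnar markers were lower in esophagus, with sums of 2728 to 7644 against 698694 to 731655. Of 8 fibroblast markers, 4 were above background on no array and none on all 3 of either tissue, with sums of 224 to 262 in esophagus and 268 to 272 in stomach. None of 6 smooth muscle (516.6 to 1523 in esophagus, 568.7 to 1859 in stomach), 6 skeletal muscle (169.1 to 191.0 and 177.8 to 185.7) or 5 endothelial markers (494.0 to 689.8 and 549.1 to 578.2) passed a limma adjusted p under 0.05. Arrays of the tissues still did not overlap for *Cnn1* (at least 1.73-fold higher in esophagus, limma unadjusted p = 0.0189, adjusted 0.110), *Ckm* (higher), *Acta1* and *Cdh5* (lower). Of 6 neural and Schwann cell markers, *Elavl4* (0.92) and *Tubb3* (4.37) were higher in esophagus, and of 6 immune markers *Itgam* was lower (-2.62). Sums ran from 7454 to 14725 and from 12392 to 35675 for the former list, and from 5298 to 30611 and from 12017 to 17267 for the latter. The part of these lists in the results below was not tested, and in bulk organoids fewer cells of a type and less RNA per cell cannot be told apart.

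*Col17a1*, *Dst*, *Itgb4*, *Lama3*, *Lamb3* and *Itga3* had a probe that was higher in esophagus organoids. In the same comparison *Plec* and *Cd151* passed in neither direction, and *Itga6* had a lower probe and a brighter probe that did not pass. A probe was called at an adjusted p under 0.05 (limma, Benjamini-Hochberg adjustment over all probes). In all, 10 of the 15 probes were called, against 12.2% of all probes, 8 of them higher (5.94% of all probes) and 2 lower (6.22%). Counted by gene, 6 of 9 had a probe called higher and 2 of 9, *Dst* and *Itga6*, a probe called lower, *Dst* having both. Over all gene names these shares were 7.88% and 8.33%, and 16.2% had a probe called in either direction. By its brightest probe, each of the 9 genes had a positive difference, with a median of 1.19 and a range of 0.37 to 9.69, and 6 of them were called higher and 0 lower. Of the brightest probes of all gene names, 7.15% were called higher and 7.70% lower. Restricted to gene names whose brightest probe was well above background throughout 1 tissue, as for the 9 members, these shares were 12.8% and 13.9%, with a median difference of 0.06. The members' share of higher calls lay above each of these background shares. The members were chosen with earlier results of these data known, so this excess is no test of the group. The esophagus arrays all lay above the stomach arrays for 10 of the 15 probes and all below for 2, against 15.2% and 13.4% of all probes. With 1 array left out at a time, the number of genes with a higher probe ran from 5 to 8.

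**Figure D1:**
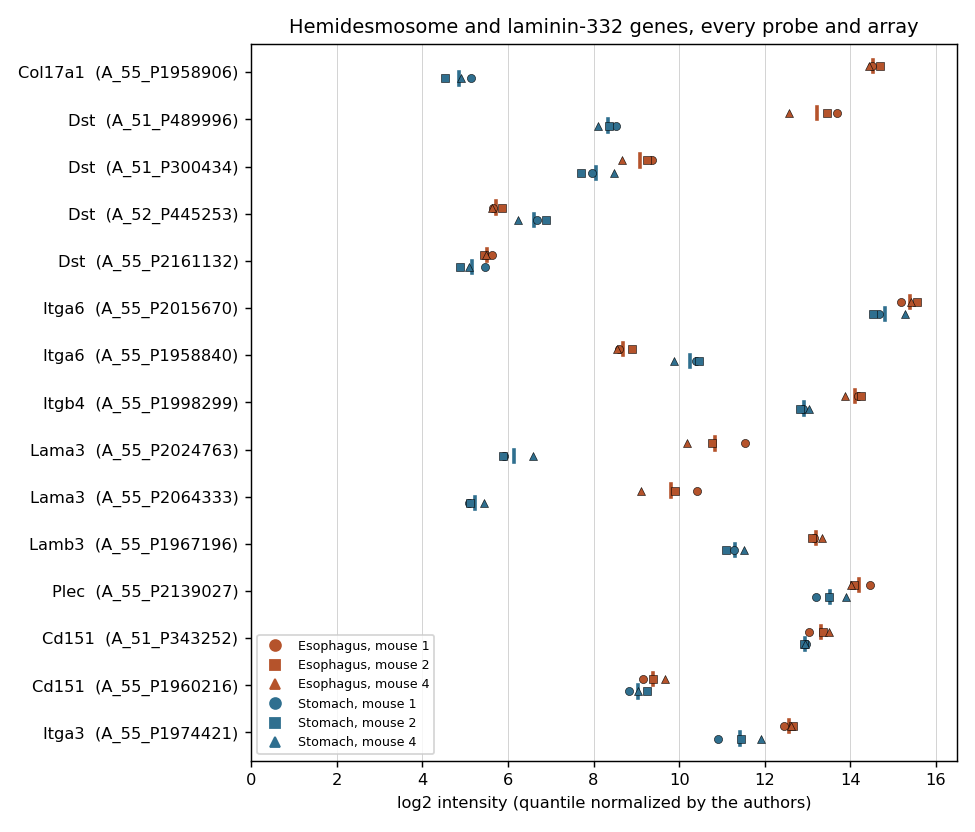
Log2 intensity (horizontal axis) of each of the 15 probes on each array, esophagus in orange and stomach in blue, with the mouse as the symbol and the tissue mean as a vertical bar. *Col17a1* stands farthest apart, at 14.44 to 14.68 in esophagus and 4.52 to 5.13 in stomach, while the tissues overlap for *Itga6* A_55_P2015670.

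The largest difference among the members was that of *Col17a1*, which encodes collagen XVII (BP180), the transmembrane collagen of the junction. Its probe (NM_001290825, chr19:47720894-47720953 on the minus strand, mm9) read 14.49, 14.68 and 14.44 in the esophagus organoids of mice 1, 2 and 4. The 3 stomach arrays read 5.13, 4.52 and 4.90, and none of them was well above background, the flag that the scanning software sets for a spot clearly brighter than its surroundings. In the main values, set against the lowest signal well above background, expression was therefore at least 747-fold higher in esophagus. With 1 array left out, this bound ran from 711-fold to 783-fold. The measured difference was 9.69 (SE 0.19, limma adjusted p = 9.39e-08), and it ran from 8.43 to 12.44 over 13 other settings (another background correction or scaling, a filter on dim probes, other variance estimates, the mouse or slide in the fit, or 1 array left out), each of which kept the call. The slide in the fit amounts to leaving out the esophagus array of mouse 4, so the settings are not all distinct.

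Integrin α6β4, the laminin receptor of the hemidesmosome, differed less. *Itgb4*, whose long cytoplasmic tail binds plectin, read 14.17, 14.26 and 13.87 in esophagus and 12.88, 12.81 and 13.04 in stomach (NM_001005608, chr11:115869666-115869725, mm9). Every esophagus array was above every stomach array, and the difference was 1.19 (SE 0.16, limma adjusted p = 0.00245, 2.27-fold), called in all 13 other settings. Each of the 6 arrays read the probe well above background.

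For *Itga6*, which encodes the α6 chain, the 2 probes went in opposite directions. The brighter probe (A_55_P2015670, NM_008397, chr2:71694756-71694815, mm9) read 15.19, 15.56 and 15.41 in esophagus and 14.66, 14.52 and 15.27 in stomach. The stomach array of mouse 4 lay above the esophagus array of mouse 1, so the tissues overlapped, and the difference of 0.57 did not pass (unadjusted 95% interval 0.05 to 1.09, limma adjusted p = 0.171). Without the stomach array of mouse 4, the one harvested on day 7, it was 0.79 and passed (limma adjusted p = 0.0310). The second probe (A_55_P1958840, listed under transcript ENSMUST00000139760.1, chr2:71690633-71690692) read 8.59, 8.90 and 8.55 in esophagus and 10.39, 10.47 and 9.87 in stomach. Every esophagus array was below every stomach array, and the probe was lower by 1.57 on the log2 scale (SE 0.20, limma adjusted p = 0.00194), in all 13 other settings. Between the 2 probes the tissue difference changed by 2.13, and the arrays of the tissues did not overlap (exact two-sided permutation p = 0.1, the smallest that 3 arrays against 3 can give). Which *Itga6* transcripts each probe reads was not analysed here.

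In the plaque inside the cell, *Dst* showed the widest spread among probes of 1 gene. *Dst* encodes dystonin, which is made in epithelial, neuronal and muscle forms that differ in their ends. The array reads it with 4 probes, 3 of which list the RefSeq transcripts NM_134448, NM_133833 and NM_001276764. The other, A_51_P489996, lists NM_010081 and none of those 3. The probes that differed most, A_51_P489996 (chr1:34239785-34239844) and A_52_P445253 (chr1:34209337-34211389, both mm9, plus strand), are shown as designed, 60 bases each. The second covers 2053 bases of the genome and so reads across a gap in the alignment.
A_51_P489996: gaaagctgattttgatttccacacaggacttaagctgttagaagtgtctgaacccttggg
A_52_P445253: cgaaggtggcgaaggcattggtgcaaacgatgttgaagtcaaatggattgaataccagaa

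The probe for NM_010081 read 13.68, 13.44 and 12.57 in esophagus and 8.53, 8.36 and 8.10 in stomach. All 6 arrays were well above background, the tissues lay 4.04 apart at their nearest arrays, and the difference was 4.90 (SE 0.29, limma adjusted p = 2.53e-05, 29.9-fold). It passed in each of the 13 other settings. The files do not say which dystonin form a probe reads.

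The other *Dst* probes moved little or the other way. A_51_P300434 (chr1:34364644-34364703) read 9.37, 9.25 and 8.66 in esophagus and 7.97, 7.71 and 8.49 in stomach, a difference of 1.04 (SE 0.26, limma adjusted p = 0.0405). That call was lost with the mouse as a block (limma adjusted p = 0.0908), with normexp at an offset of 50 (0.0689), with processed signals scaled to the 75th percentile (0.0817), and without stomach 1, stomach 2, esophagus 1 or esophagus 2 (limma adjusted p from 0.101 to 0.153). A_52_P445253 read 5.66, 5.87 and 5.63 in esophagus and 6.68, 6.89 and 6.24 in stomach, and was lower in esophagus by 0.89 (difference -0.89, SE 0.20, limma adjusted p = 0.0241). It was dim, well above background on 2 of 3 esophagus arrays, and its difference ran from -1.74 with processed signals scaled to the 75th percentile to -0.60 with normexp at an offset of 50. The call was lost without stomach 1, stomach 2, esophagus 1 or esophagus 4 (limma adjusted p = 0.105, 0.0938, 0.0602 and 0.0624). The fourth probe, A_55_P2161132 (chr1:34365447-34365506), was well above background on 1 of 3 arrays of each tissue and differed by 0.37 (95% interval -0.05 to 0.79, limma adjusted p = 0.272).

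Set within each array against the NM_010081 probe, the 3 other *Dst* probes fell short of its tissue difference by 3.86, 5.79 and 4.53. In each case the esophagus arrays did not overlap the stomach arrays (exact two-sided permutation p = 0.1, adjusted 0.15 over 6 pairs of probes). The arrays overlapped for the probes of *Cd151* (change of 0.02, exact p = 0.9, adjusted 0.9) and of *Lama3* (0.11, exact p = 0.5, adjusted 0.6). For *Lama3* they did not overlap in 2 of 3 other settings, with a change of 0.43 at an offset of 50 and a reversed one of -1.47 when the processed signal was scaled to the 75th percentile (exact p = 0.1 each).

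**Figure D2:**
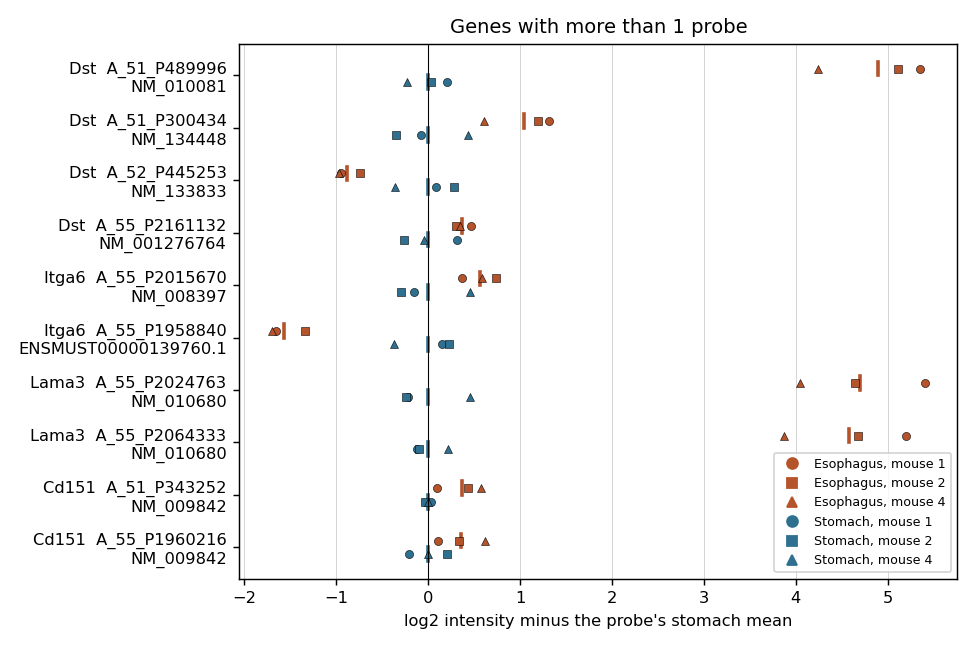
Log2 intensity of each probe minus its stomach mean (horizontal axis) for the 4 genes with more than 1 probe, esophagus in orange and stomach in blue, the mouse as the symbol and the tissue mean as a vertical bar. The NM_010081 probe of *Dst* lies 4.90 above its stomach mean in esophagus and A_52_P445253 lies 0.89 below, whereas both *Lama3* probes lie above, by 4.70 and 4.59.

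*Plec*, which encodes plectin, the plakin that joins integrin β4 to keratins, read 14.46, 14.09 and 14.02 in esophagus and 13.19, 13.51 and 13.89 in stomach (NM_001163540, chr15:76001454-76001513, mm9). The tissues did not overlap but came within 0.13 of each other, and the difference of 0.66 did not pass (95% interval 0.15 to 1.17, limma adjusted p = 0.106). Without the stomach array of mouse 4 it was 0.84 and passed (limma adjusted p = 0.0411). Under the methods' thresholds of an unadjusted p under 0.05 and 1.5-fold, which 18.1% of all probes met, *Plec* was also called (limma unadjusted p = 0.0179).

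Both laminin-332 chains among the members were higher in esophagus. *Lama3*, the α3 chain that the integrins bind, was read by 2 probes listed under NM_010680 on chromosome 18. The first (A_55_P2024763) gave 11.54, 10.77 and 10.18 in esophagus and 5.92, 5.89 and 6.59 in stomach, and the second (A_55_P2064333) 10.42, 9.90 and 9.10 against 5.10, 5.12 and 5.44. The differences were 4.70 (SE 0.35, limma adjusted p = 9.34e-05) and 4.59 (SE 0.32, limma adjusted p = 5.92e-05), each called in all 13 other settings, over which they ran from 4.10 to 5.41 and from 3.66 to 6.88. The esophagus arrays differed more among themselves than on any other member probe, with an SD of 0.68 and 0.67. On the second probe, 1 of 3 stomach arrays was well above background.

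*Lamb3*, the β3 chain, read 13.14, 13.10 and 13.34 in esophagus and 11.29, 11.10 and 11.51 in stomach (NM_008484, chr1:195170009-195170068, mm9). Its difference of 1.89 (SE 0.17, limma adjusted p = 0.000212, 3.71-fold) passed in all 13 other settings, with the tissues 1.59 apart at their nearest arrays. Within arrays, *Lama3* minus *Lamb3* was 2.81 larger in esophagus than in stomach.

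*Itga3*, the α3 integrin chain, read 12.46, 12.67 and 12.60 in esophagus and 10.92, 11.44 and 11.92 in stomach (NM_013565, chr11:94906334-94906393, mm9). The stomach arrays varied more (SD 0.50) than the esophagus arrays (SD 0.11), no array of one tissue reached the other, and the difference was 1.15 (SE 0.25, limma adjusted p = 0.0223). The call was lost without stomach 1, stomach 2, esophagus 2 or esophagus 4 (limma adjusted p = 0.0572, 0.0847, 0.0756 and 0.0535).

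Its partner *Cd151*, a tetraspanin that binds α3β1 and α6β4, read 13.04, 13.37 and 13.51 in esophagus and 12.97, 12.90 and 12.93 in stomach on the brighter probe (NM_009842, chr7:148657237-148657297, mm9). The difference of 0.37 did not pass (95% interval -0.01 to 0.76, limma adjusted p = 0.227), and the intervals of this gene leave room for a change of up to 0.80. The dimmer probe read 9.15, 9.38 and 9.67 against 8.83, 9.25 and 9.05, with overlapping arrays and a difference of 0.35 (95% interval -0.09 to 0.80, limma adjusted p = 0.326).

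Subunits and direct partners were then compared within each array, as the difference between their brightest probes, in 6 pairs. In each of the 6 the esophagus arrays did not overlap the stomach arrays. Each gave the smallest p the design allows (exact two-sided permutation p = 0.1, adjusted 0.10), so that none could pass 0.05. No share over other pairs of genes is given here, so the count of 6 is not read as a result about partners. By construction, the change of a pair is the tissue difference of its first gene minus that of its second. With processed signals scaled to the 75th percentile, *Itga3* minus *Cd151* and *Itgb4* minus *Plec* overlapped (exact p = 0.2). Both pairs with *Col17a1* are set against stomach arrays on which it was not well above background, so their values are bounds. With those arrays at the lowest level well above background, *Itgb4* minus *Col17a1* changed by at least -8.36 and *Col17a1* minus *Dst* by at least 4.64. The measured changes were -8.50 and 4.79, and they moved to -7.30 and 3.74 with normexp at an offset of 50 and to -11.01 and 7.34 with the processed signals. *Itga6* minus *Itgb4* changed by -0.62, with 1.02, 1.30 and 1.54 in esophagus and 1.78, 1.71 and 2.22 in stomach. *Itga3* minus *Cd151* changed by 0.78, and *Itgb4* minus *Plec* by 0.53, the latter with -0.29 as the lowest esophagus and -0.31 as the highest stomach value. The change was thus under 1 in the pairs among integrin chains, plectin and CD151, and over 2 in the 3 pairs with *Col17a1* or *Lama3*.

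**Figure D3:**
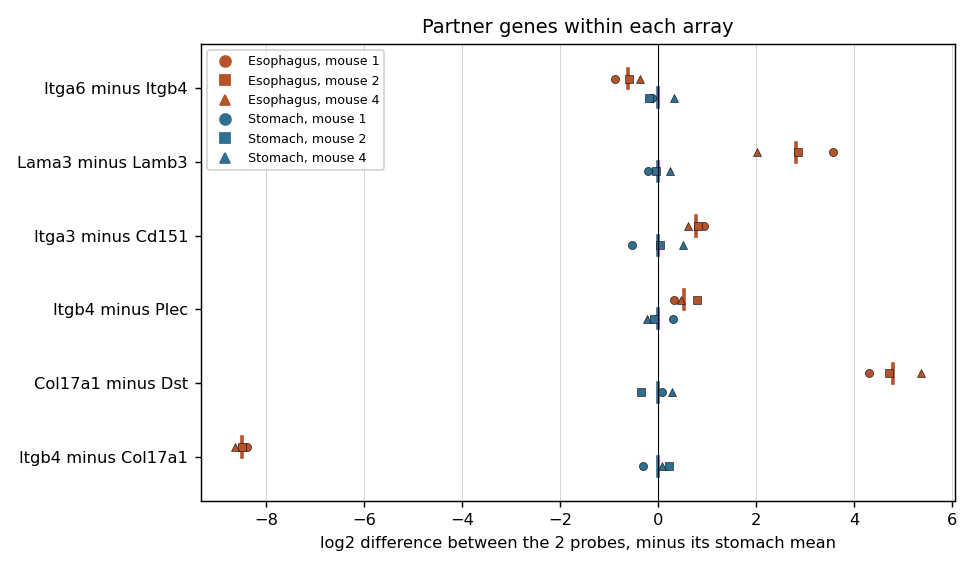
Within-array log2 difference between the brightest probes of 2 partner genes, minus its mean over the 3 stomach arrays (horizontal axis), esophagus in orange and stomach in blue, the mouse as the symbol and the tissue mean as a vertical bar. The esophagus arrays lie 8.50 below the stomach mean for *Itgb4* minus *Col17a1* and 4.79 above it for *Col17a1* minus *Dst*, both measured against stomach arrays with *Col17a1* not well above background.

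Across animals, the members lay somewhat higher on 1 stomach array. Relative to the mean of its tissue, the median over the 9 brightest probes was 0.21 for the stomach array of mouse 4, with 7 of 9 genes above the mean, and lay between -0.10 and 0.09 for the 5 other arrays. That array is also the one harvested on day 7. The same median over all probes is not given here, and whether the shift is particular to the members was not tested.

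For 5 of the 9 genes a promoter window of 300 bases around the start of a transcript was at hand (RefSeq, GRCm38.p6), 9 windows in all. They were searched on both strands for a p53-family core (a C, 2 free bases and a G, then 6 free bases and the same 4 again), the kind of letters that p63, the squamous member of that family, and its relatives bind, for a TEAD motif (CATTCC) and for an AP-1-like motif (TGANTCA, whose N admits letters outside the usual AP-1 site). The core was in all 9 windows and in 70.2% of 32851 windows of all genes. It is thus common, and whether the 2 shares differ was not tested. The TEAD letters were in 1 of the 9, for *Lamb3* (14.7% of all windows), and the AP-1-like letters in 1, for *Itga3* (7.81%). Overlaps between motifs were not removed. The window of *Col17a1*, the gene with the largest difference, and the 2 windows with the rarer letters are given 5′ to 3′ on the gene's strand, with the first core of *Col17a1*, the TEAD letters of *Lamb3* and the AP-1-like letters of *Itga3* in capitals. They lie at chr19:47691993-47692292 (minus), chr1:193301993-193302292 (plus) and chr11:95069149-95069448 (minus).
Col17a1: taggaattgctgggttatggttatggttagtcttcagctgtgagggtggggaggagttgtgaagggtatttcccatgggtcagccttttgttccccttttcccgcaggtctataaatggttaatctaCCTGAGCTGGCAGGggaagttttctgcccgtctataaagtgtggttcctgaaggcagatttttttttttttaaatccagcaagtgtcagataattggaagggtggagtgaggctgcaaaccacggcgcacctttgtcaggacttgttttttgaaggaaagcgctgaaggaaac
Lamb3: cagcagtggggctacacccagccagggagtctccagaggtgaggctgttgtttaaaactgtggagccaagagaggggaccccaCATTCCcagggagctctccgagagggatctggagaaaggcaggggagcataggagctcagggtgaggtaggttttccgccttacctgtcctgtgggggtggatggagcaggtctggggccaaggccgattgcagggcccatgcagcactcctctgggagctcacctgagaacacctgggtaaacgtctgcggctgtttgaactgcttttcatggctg
Itga3: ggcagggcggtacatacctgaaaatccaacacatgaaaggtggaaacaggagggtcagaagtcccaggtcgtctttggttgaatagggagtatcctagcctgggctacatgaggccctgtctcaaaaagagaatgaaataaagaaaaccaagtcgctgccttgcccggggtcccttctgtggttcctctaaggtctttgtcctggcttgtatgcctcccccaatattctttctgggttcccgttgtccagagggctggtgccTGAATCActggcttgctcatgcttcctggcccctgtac

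A list of 21 other genes of cell-matrix adhesion, basal keratins and plakins was broader than the hemidesmosome. Of these, 8 had a probe called higher and 2 a probe called lower, with a median difference of 0.08 by brightest probe. Over all gene names 7.88% had a probe called higher and 8.33% a probe called lower, so that the count of lower genes is near the background. Without stomach 1 the number higher was 5, and with the mouse as a block it was 7. The basal keratins to which hemidesmosomes attach were higher, measured against stomach signals near background. *Krt5* was higher by 11.93 (SE 0.17, limma adjusted p = 3.2e-08), *Krt14* by 11.30 and *Krt15* by 9.79, with 1, 2 and 1 of the 3 stomach arrays well above background, and these 3 are markers of squamous cells as well. For a second, dimmer *Krt5* probe, which no stomach array read well above background, the bound was at least 145-fold. The plakins of the cornified envelope, *Evpl* (3.18, SE 0.47, limma adjusted p = 0.00346) and *Ppl* (3.10, SE 0.51, limma adjusted p = 0.00588; 3.74 without esophagus 4), were higher too, whereas the plakin *Macf1* differed by 0.05 (limma adjusted p = 0.906). Smaller differences were those of *Bcam* (0.98), a receptor for laminin α5, *Lad1* (0.94), an anchoring filament protein, and the tetraspanin *Cd9* (0.57). Without stomach 1, *Bcam* and *Lad1* did not pass (limma adjusted p = 0.0606 and 0.0545), and *Cd9* did not pass without any 1 of the 6 arrays (limma adjusted p from 0.0618 to 0.111).

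Lower in esophagus in that list were *Fermt1* (-2.01, SE 0.25, limma adjusted p = 0.00159), which encodes the epithelial integrin activator kindlin-1, and *Parva*, an actin-linked adaptor of integrins. The 3 *Parva* probes disagreed, since 2 were lower, the brightest with a difference of -0.98, and another bright one, well above background on all 6 arrays, differed by -0.21 with overlapping tissues (limma adjusted p = 0.628). The remaining 11 genes passed in neither direction. *Col7a1*, the anchoring fibril collagen, had a difference of 0.88 (limma adjusted p = 0.246), *Itgb1*, the partner of α3, of -0.34 (limma adjusted p = 0.337), and *Erbin*, which binds integrin β4, of -0.41 (limma adjusted p = 0.287).

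In the basement membrane list of 32 genes, 5 had a probe called higher and 11 a probe called lower, with a median of -0.17. Over all gene names these shares were 7.88% and 8.33%. The 12.8% and 13.9% hold only for brightest probes well above background throughout 1 tissue. They are no measure for the whole list, in which 7 genes were above background on no array. Whether the list differs from all gene names was not tested. The 11 include *Col18a1*, which was called on its dimmer probe (-1.41) and not on its brighter one (-1.21, limma adjusted p = 0.0923). The chains of collagen IV, the sheet-forming collagen, showed the largest differences in that direction. *Col4a2* read 4.63, 4.65 and 4.85 in esophagus, not well above background on any array, and 10.69, 10.89 and 11.05 in stomach, and was at least 59.0-fold lower in esophagus. The other chain of the common trimer, *Col4a1*, was at least 46.5-fold lower and *Col4a5* at least 24.9-fold. The 2 probes of *Col4a6* disagreed. The brighter was at least 14.7-fold lower in esophagus and not well above background there, whereas the other was well above background on all 6 arrays, at 6.19, 6.59 and 6.56 in esophagus and 5.83, 6.01 and 6.35 in stomach, a difference of 0.39 in the opposite direction that did not pass (limma adjusted p = 0.282). *Col4a3* and *Col4a4* were near or under background in both tissues.

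Other matrix genes were lower as well. *Npnt*, a ligand of integrin α8β1, was at least 11.8-fold lower in esophagus by its brighter probe, or at least 7.80-fold without stomach 4, and at least 3.45-fold lower by its dimmer one. *Nid2* (nidogen-2) was at least 7.18-fold lower. *Hspg2*, which encodes perlecan, was lower by 3.21 on the log2 scale by its brighter probe (difference -3.21, SE 0.15, limma adjusted p = 5.76e-06) and by 1.37 by its dimmer one (difference -1.37, limma adjusted p = 0.00776). *Agrn*, the heparan sulfate proteoglycan agrin, differed by -0.01 (limma adjusted p = 0.982), and *Nid1* by -2.19 with a limma adjusted p of 0.0641, its other 2 probes not being well above background on any array.

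Higher in esophagus were *Tgfbi*, a secreted matrix protein that binds integrins, at least 485-fold, *Bmp1* (2.92, SE 0.19, by its brightest probe), a protease known to process laminin-332 and procollagen VII, *Mmp14* (2.48, SE 0.18), a membrane-bound metalloprotease, and *Loxl2* (0.63, limma adjusted p = 0.0478), which did not pass without any 1 of the 6 arrays (limma adjusted p from 0.0513 to 0.183). The other *Bmp1* probes differed by 2.15, which passed, and by 0.58, which did not (limma adjusted p = 0.0527) although all 6 arrays were well above background. The other 2 *Loxl2* probes, which no esophagus array read well above background, differed by -0.17 and -0.19 and did not pass. *Lamb1* was higher by 3.49 (SE 0.31, limma adjusted p = 0.000216).

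Of the laminin family, 10 chains were examined. *Lama3*, *Lamb3* and *Lamb1* were higher in esophagus, and 3 chains, *Lama5* (-1.46), *Lamb2* (-2.21) and *Lamc1* (-0.98), were lower. The other 4, *Lama1*, *Lama2*, *Lama4* and *Lamc3*, stayed near background on all 6 arrays. *Lamb2* did not pass without stomach 1, stomach 2 or esophagus 1 (limma adjusted p = 0.0901, 0.0684 and 0.0517). Of the chains of laminin-511, a laminin of many epithelial basement membranes, α5 and γ1 were thus lower and β1 higher in esophagus, with *Lama5* at 12.10, 12.05 and 12.30 against 13.71, 13.78 and 13.35 in stomach.

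**Figure D4:**
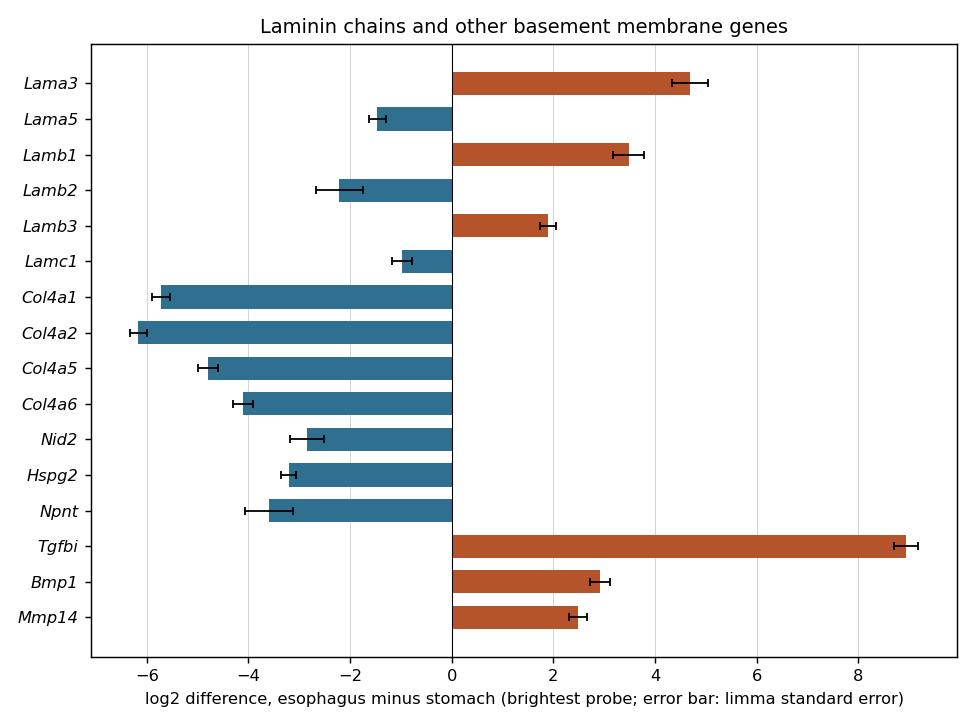
Difference in log2 intensity, esophagus minus stomach (horizontal axis), of the brightest probe of 6 laminin chains and 10 other basement membrane genes, with orange bars for genes higher and blue for genes lower in esophagus and the limma standard error of 3 arrays against 3 as the error bar. *Lama3*, *Lamb1* and *Lamb3* point right and the 3 other chains left; bars of collagen IV, *Nid2*, *Npnt* and *Tgfbi* are measured differences against a tissue not well above background.

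Among 13486 other gene names, the profiles over the 6 arrays most like that of *Col17a1* were those of *2610528A11Rik*, *Lgals7*, *S100a9*, *Gm5476* and *Tgfbi*. Likeness was the root mean square distance between log2 profiles, each centred on its own mean, and came to 0.30, 0.36, 0.40, 0.47 and 0.49. In esophagus *Gm5476* was at least 507-fold and *Tgfbi* at least 485-fold higher, as *Col17a1* was at least 747-fold, since no stomach array read these 3 well above background. *2610528A11Rik*, *Lgals7* and *S100a9*, each read well above background on at least 1 stomach array, differed by 9.64, 9.06 and 10.35. *Lgals7* encodes galectin-7 of stratified epithelia and *S100a9* a calcium-binding protein of the calprotectin dimer. These values share the same 6 arrays, and with 2 groups the distance reads little beyond the size of the tissue difference.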

How the data were processed

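Total RNA of the organoids was labelled with Cy3 and hybridised to Agilent mouse arrays, 1 per sample. Scanning by the authors used Feature Extraction 11.5.1.1, and the deposited scanner files hold raw intensity, local background intensity and flags for 62976 spots, 3671 of them controls. Log2 values come from a second table, which the authors deposited after background correction and quantile normalization. It was matched by normexp on median intensities (offset 15, then quantile normalization) to a median absolute difference of 0.00433, and the 2029 empty cells of the table were the 2029 outlier-marked spots. Genes were named as in the files, probe coordinates are mm9, and RefSeq tables of GRCm38.p6 served for promoter sequences. No exon annotation was used.

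The log2 table gave the values. Spots of a probe were averaged, and limma (version 3.58.1, R 4.3.3; lmFit and eBayes) compared 3 esophagus with 3 stomach arrays over all 55681 probes without a block. The study's methods name limma, a p under 0.05 and 1.5-fold and do not say whether p-values were adjusted. Where no array of a tissue was well above background, the fold is a bound, set against the higher of the dim probe's signal and the lowest signal of any probe well above background on that array. Such a bound holds for the values of the log2 table and is not a confidence limit. Of non-control spots 45.5% to 51.1% were well above background and none was saturated; the number of arrays limits the precision. Partners and probes of a gene were compared by exact permutation tests. The fit was checked on simulated data. Replicate numbers were read from the sample titles as those of the animals, which would pair the tissues. Within a mouse, the departures of esophagus and stomach arrays from their group means had correlations over probes of 0.025, 0.012 and -0.008. Between different mice these correlations ran from -0.073 to 0.040, so the values do not show the pairing.

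The members, the 2 lists, the markers and the tests were chosen with earlier results of these data known. Named are every probe of the members, the called genes with the largest change of each list (at most 8 in each direction), and the 5 profiles nearest to *Col17a1*; *Macf1*, *Col7a1*, *Itgb1*, *Erbin*, *Agrn*, *Nid1*, *Lama5*, *Lamc1*, *Col18a1* and the laminin and collagen IV chains in neither direction were added for their roles after the values were seen. Alternatives were normexp with an offset of 16 or 50, processed signals scaled to the 75th percentile, a filter on dim probes, eBayes with a trend and robust prior, the slide or the mouse in the fit, each array left out, the methods' thresholds, and averaging the probes of a gene. An item of the planned lists is not reported here. Leaving out each array for named genes of the 2 lists, and the bounds of the pairs with *Col17a1*, were added after seeing the data.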

Additional observations from a re-analysis of the deposited data

How the results depend on the processing

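The 15 member probes kept their direction and call in 197 of 218 recomputed values, lost the call in 17, gained it in 3 and reversed in 1. The reversal was the brighter *Itga6* probe, -0.50 once the probes of the gene were averaged (limma adjusted p = 0.0511), which takes in the lower probe. Of member genes with a probe called lower, 1 remained with the slide as a covariate, which amounts to leaving out the esophagus array of mouse 4, alone on its slide, and 0 with probes averaged; of member probes called lower, 1 remained with the slide. Adhesion genes lower numbered 5 at the methods' thresholds and 1 with processed signals scaled to the 75th percentile, against 2. That scaling moved the median of all probes from 0.02 to 0.19 and turned the change between the *Lama3* probes to -1.47; the cause was not tested.

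With 1 array left out at a time, member genes with a higher probe ran from 5 to 8 and with a lower probe from 1 to 2, member probes from 6 to 10 and from 1 to 2, adhesion genes from 5 to 8 and from 2 to 3, and basement membrane genes from 4 to 5 and from 9 to 11. All called probes ran from 4091 without stomach 1 and 4152 without stomach 2 to 7415 without stomach 4, against 6770. The replicate block (mouse) left 6153, with 6 member genes higher and 2 lower and, among member probes, changed the call of *Dst* A_51_P300434 only (limma adjusted p = 0.0908). Signal over background limits what dim probes such as *Dst* A_55_P2161132 can show.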
